A study of Mus musculus with 4 samples.

Results

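The 10 genes described here code for precursors of peptides that neurons release as messengers: Tac1, Tac2, Nts, Trh, Gal, Cartpt, Adcyap1, Avp, Oxt and Vgf. They were chosen by gene symbol as precursors known from subcortical areas and the hypothalamus, with earlier results of these data known. All 10 were found among the 17778 genes of the deposited table. mRNA had been sequenced from the medial prefrontal cortex (mPFC, both sides) of male juvenile C57BL/6 mice (C57BL/6J in the methods of the study). The CUMS group (2 libraries) had undergone chronic unpredictable mild stress, with social isolation and a random schedule of tilted, empty or damp cages, restraint, noise, strobe light and a disturbed light cycle. From the stressed mice, those with depression-like behavior in each of the behavior tests were selected, and tissue was taken 24 hours after testing. The control group (2 libraries) came from mice that were housed without these stressors. RNA was isolated from each mouse, and whether the RNA of several mice was pooled for a library is not given in the sources used here.

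A neuropeptide is cut from its precursor by convertases inside dense core granules, is released from them, and acts on G protein-coupled receptors, often far from the release site. Oxytocin and vasopressin are made mainly by large neurons of the hypothalamus. Substance P, neurokinin B, neurotensin, galanin, thyrotropin-releasing hormone (TRH), CART, PACAP and the VGF peptides are made in many brain areas, some of them by neurons of the cerebral cortex and others mostly by subcortical neurons.

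Levels are given as RPKM, a read number scaled to the length of the gene and to the depth of the library, averaged by the authors over the libraries of a group, so that each gene had 1 control mean and 1 CUMS mean. No value of a single library was used here, no difference has a replicate check, and no p-value is given. The smallest step in the low values gave an estimate of the number of fragments behind each mean, 8158267 per control library and 8258881 per CUMS library over all genes. Values are followed by these estimated fragments, summed over the libraries of a group, and each log2 ratio (CUMS over control) by its exact 95% counting interval. These intervals cover counting error only and say nothing of the differences between mice.

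In depression-like mice the means of Nts, Trh, Gal and Oxt were lower by more than 1.5-fold, the fold threshold of the study. The study also required a minimum NOISeq probability, which was not used here, and of these 4 genes it lists Nts alone as changed. Cartpt lay just outside the 1.5-fold threshold, Vgf was slightly lower, and Tac1 and Tac2 did not differ beyond counting error. Adcyap1 was higher. Avp was at the limit of detection in both groups. Of the 10 precursors, 8 had a lower CUMS mean and 2 a higher one (Adcyap1, and Avp on 1 fragment in each group), with a median log2 ratio of -0.39. In comparison, 53.2% of the 14257 genes that reached 0.5 RPKM in either group had a lower CUMS mean, and their median log2 ratio was -0.015. Of the 10 precursors, 9 reached this level, and Avp did not. More than 1.5-fold lower were 4 precursors, a change seen in 4.42% of the 14257 genes, and 0 precursors were higher by this fold, which 2.78% of genes were. The counting interval lay under equal expression in 6 precursors (17.6% of genes) and above it in 1 (13.1% of genes). Since the intervals are narrow for abundant genes, these shares depend on level. With at least 5 RPKM in either group there were 7 precursors, and 2 of them were more than 1.5-fold lower, against 1.28% of 9397 genes. Because the precursors were chosen with earlier results of these data known, these shares are descriptions and not a test.

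**Figure D1:**
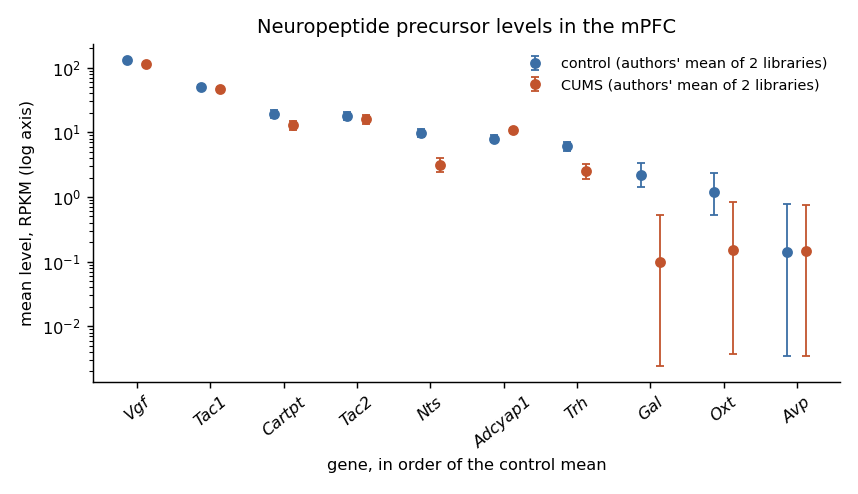
Mean level (RPKM, log axis) of each precursor in control and CUMS mPFC, in order of the control mean; points are the authors' means over 2 libraries and bars are exact 95% Poisson intervals of the estimated fragments. The pairs of points separate for Nts, Trh and Gal, lie close for Vgf and Tac1, and rest on 1 fragment for Avp in both groups.

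The promoter windows beside the genes with the lowest ratios are shown so that they can be compared with Cartpt, near the threshold, and with Adcyap1, which was higher. They are the 250 bases before a RefSeq start on GRCm38.p6 (mm10), read 5′ to 3′ on the strand of the gene. For Oxt, Cartpt and Adcyap1 the window lies inside the gene span given below. Positions of motifs there are counted from the start that follows the window, not from the end of the span. Windows were found for 9 of the 10 genes. Capitals mark matches, on either strand, to TGACG (the half-site of the cyclic AMP response element), TGACGTCA (the full element, which contains the half-site on both strands), TGAGTCA (the AP-1 site bound by Fos and Jun proteins) and AGGTCA (a half-site of nuclear receptors).
Nts, chr10:102490419-102490668, minus strand: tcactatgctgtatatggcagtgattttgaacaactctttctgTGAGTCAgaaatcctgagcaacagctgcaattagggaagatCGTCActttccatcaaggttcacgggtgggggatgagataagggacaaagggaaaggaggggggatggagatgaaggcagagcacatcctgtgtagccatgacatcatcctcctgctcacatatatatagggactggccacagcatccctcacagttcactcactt
Trh, chr6:92244651-92244900, minus strand: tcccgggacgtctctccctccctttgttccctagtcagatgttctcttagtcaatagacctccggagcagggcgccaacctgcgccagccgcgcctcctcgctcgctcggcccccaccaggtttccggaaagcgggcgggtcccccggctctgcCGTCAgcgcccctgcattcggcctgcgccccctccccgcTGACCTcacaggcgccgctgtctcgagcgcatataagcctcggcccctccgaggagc
Gal, chr19:3414545-3414794, minus strand: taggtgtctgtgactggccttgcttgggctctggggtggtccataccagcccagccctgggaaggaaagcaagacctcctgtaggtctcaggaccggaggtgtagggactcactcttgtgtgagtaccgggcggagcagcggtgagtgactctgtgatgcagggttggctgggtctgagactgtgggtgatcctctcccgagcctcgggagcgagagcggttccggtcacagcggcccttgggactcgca
Oxt, chr2:130575919-130576168, plus strand: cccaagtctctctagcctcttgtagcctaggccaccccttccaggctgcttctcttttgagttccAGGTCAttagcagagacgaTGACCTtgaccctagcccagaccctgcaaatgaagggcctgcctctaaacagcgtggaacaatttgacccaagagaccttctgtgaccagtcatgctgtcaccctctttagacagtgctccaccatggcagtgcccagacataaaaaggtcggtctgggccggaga
Cartpt, chr13:99900684-99900933, minus strand: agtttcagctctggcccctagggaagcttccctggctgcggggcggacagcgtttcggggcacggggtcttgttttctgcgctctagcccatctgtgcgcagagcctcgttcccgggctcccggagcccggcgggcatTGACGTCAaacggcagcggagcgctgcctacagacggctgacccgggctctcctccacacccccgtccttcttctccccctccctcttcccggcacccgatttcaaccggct
Adcyap1, chr17:93198918-93199167, plus strand: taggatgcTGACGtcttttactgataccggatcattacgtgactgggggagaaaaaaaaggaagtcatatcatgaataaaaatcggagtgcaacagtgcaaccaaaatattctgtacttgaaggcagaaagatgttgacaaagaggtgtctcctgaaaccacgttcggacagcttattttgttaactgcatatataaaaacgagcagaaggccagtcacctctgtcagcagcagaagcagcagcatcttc

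TGACG was found in 5 of the 9 genes with a window (Tac1, Nts, Trh, Cartpt and Adcyap1) and in 17.8% of all 32851 windows. The full element was found in Cartpt alone, starting 112 bases before the start site, and in 1.55% of all windows. The AP-1 site was found in Nts alone, 207 bases before the start site, and in 4.46% of all windows. AGGTCA was found in Trh and at 2 places in Oxt (185 and 166 bases before the start site), and in 14.0% of all windows. Gal, Tac2 and Avp held none of the motifs. Adcyap1 has a second RefSeq start, whose overlapping window holds the same TGACG. These matches are descriptions of letters and show no binding.

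Neurotensin, the product of Nts (gene 67405, chromosome 10, 102481756 to 102490418), modulates dopamine transmission. Nts was 9.83 RPKM in control (188 fragments) and 3.155 RPKM in CUMS (61 fragments). The CUMS mean was 3.12-fold lower, a log2 ratio of -1.64 (-2.08 to -1.22). This placed Nts at rank 12 from the lowest ratio among the 9397 genes with at least 5 RPKM. Nts is also the 1 precursor that the study itself lists as changed, so that its low ratio is not independent of that list.

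TRH, the product of Trh (gene 22044, chromosome 6, 92242061 to 92244650), drives the thyroid axis from the hypothalamus and also acts as a transmitter elsewhere in the brain. Trh was 6.055 RPKM in control (130 fragments) and 2.51 RPKM in CUMS (55 fragments). The log2 ratio was -1.27 (-1.74 to -0.79), 2.41-fold lower, at rank 17 of the 9397 genes. The counting intervals of Nts and Trh overlapped.

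Galanin, the product of Gal (gene 14419, chromosome 19, 3409915 to 3414544), inhibits many of the neurons that it reaches and is abundant in the hypothalamus and in noradrenergic cells. Gal was 2.205 RPKM in control (23 fragments) and 0.1 RPKM in CUMS (1 fragment). The ratio of the means was 22.1-fold, but the log2 ratio of -4.46 had an interval from -9.91 to -1.92, so that its size is poorly known. Even the near end of the interval lay beyond 1.5-fold.

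Oxt (gene 18429, chromosome 2, 130574519 to 130577054) codes for oxytocin, the peptide of birth, lactation and social behavior. Avp (gene 11998, chromosome 2, 130580620 to 130582588) codes for vasopressin, which controls water balance and acts in the stress axis. The genes are neighbors, with 3565 bases between their spans, and lie on opposite strands with their 3′ ends toward each other. Oxt was 1.21 RPKM in control (8 fragments) and 0.15 RPKM in CUMS (1 fragment). Its log2 ratio of -3.01 had an interval from -8.49 to -0.12, which nearly reached equal expression and did not exclude a fold under 1.5. Avp was 0.14 RPKM in control against 0.145 RPKM in CUMS, which is 1 fragment in each group. Both Avp values were under the floor of 3 fragments per group (0.416 RPKM in control against 0.411 RPKM in CUMS), and no fold is given. At this depth a difference in Avp was not detectable.

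CART, the product of Cartpt (gene 27220, chromosome 13, 99898483 to 99910179), is a peptide of feeding and reward circuits that is also made by some cortical neurons. Cartpt was 19.225 RPKM in control (245 fragments) and 12.895 RPKM in CUMS (166 fragments). Its log2 ratio of -0.58 (-0.87 to -0.29) is 1.49-fold and lies just outside the threshold. Trh, at 2.41-fold, was the nearest gene inside it. The interval of Cartpt reached folds above 1.5 and overlapped that of Trh (-1.74 to -0.79). It did not overlap that of Nts.

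The tachykinin genes are Tac1 (gene 21333, chromosome 6, 7555061 to 7562978), the source of substance P and neurokinin A, and Tac2 (gene 21334, chromosome 10, 127724478 to 127731768), the source of neurokinin B. Tac1 was 50.455 RPKM in control (798 fragments) and 47.01 RPKM in CUMS (753 fragments), a log2 ratio of -0.10 (-0.25 to 0.04). Tac2 was 18.055 RPKM in control (187 fragments) and 15.85 RPKM in CUMS (166 fragments), a log2 ratio of -0.19 (-0.50 to 0.12). Neither interval excluded equal expression. Both intervals excluded a 1.5-fold lower level in CUMS.

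Vgf (gene 381677, chromosome 5, 137025301 to 137033351) is induced by neurotrophins and neuronal activity, and its product is cut into several peptides. It was the most abundant precursor, with 131 RPKM in control (5322 fragments) and 113 RPKM in CUMS (4655 fragments). The log2 ratio of -0.21 (-0.27 to -0.15) was small, and with this number of fragments it was larger than counting error. In RPKM, Vgf had the largest difference of the 10 precursors, -17.84, against -6.675 for Nts.

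PACAP, the product of Adcyap1 (gene 11516, chromosome 17, 93198245 to 93206541), raises cyclic AMP in its target cells and takes part in stress responses. Adcyap1 was 7.97 RPKM in control (266 fragments) and 10.705 RPKM in CUMS (361 fragments). The log2 ratio was 0.43 (0.19 to 0.66), 1.34-fold higher, at rank 109 from the highest ratio among the 9397 genes. It was the only precursor whose interval lay above equal expression.

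**Figure D2:**
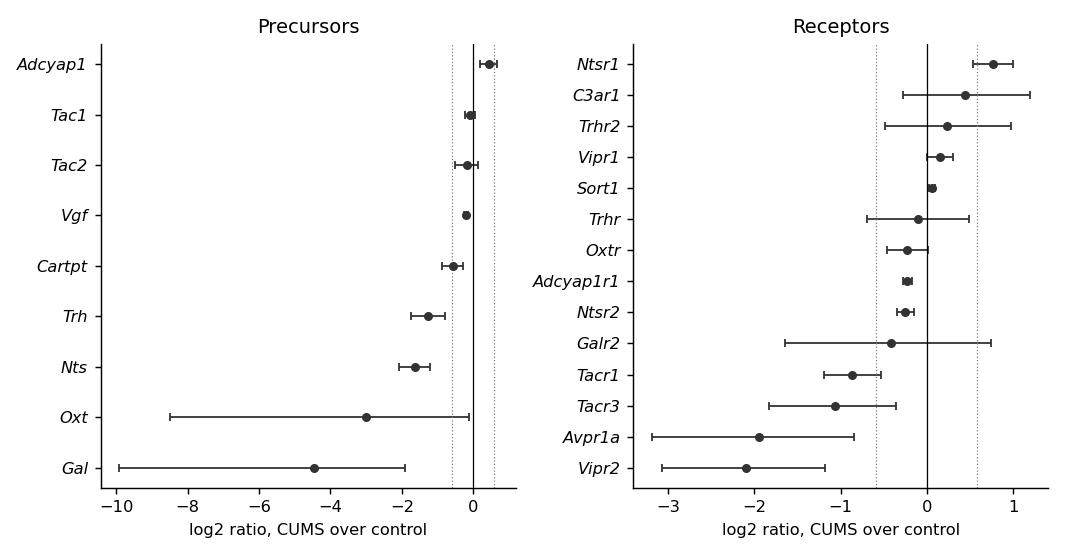
Log2 ratio of CUMS over control for 9 precursors (left, Avp left out) and for the 14 receptors that reached 0.5 RPKM in either group (right); points are ratios of the authors' group means, bars are exact 95% counting intervals and dotted lines mark 1.5-fold. Nts, Trh, Gal and Oxt lie beyond the left line, as do Tacr1, Tacr3, Avpr1a and Vipr2, and Ntsr1 lies beyond the right line.

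Per length, the order of levels in control was Vgf, Tac1, Cartpt, Tac2, Nts, Adcyap1, Trh, Gal, Oxt and Avp. Vgf and Tac1 made up 73.7% of the summed RPKM of the 10 precursors in control and 77.9% in CUMS. Of the neighbors in the control order, Cartpt and Tac2 (1.06-fold apart, interval 0.88 to 1.29) and Gal and Oxt (1.82-fold, interval 0.80 to 4.76) did not differ beyond counting error. In CUMS, Tac2 stood before Cartpt and Adcyap1 before Nts. Nts had been 1.23-fold above Adcyap1 in control (interval 1.02 to 1.49), and Adcyap1 was 3.39-fold above Nts in CUMS (interval 2.58 to 4.53). At the low end in CUMS, Oxt, Avp and Gal each rested on 1 fragment and have no order.

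**Figure D3:**
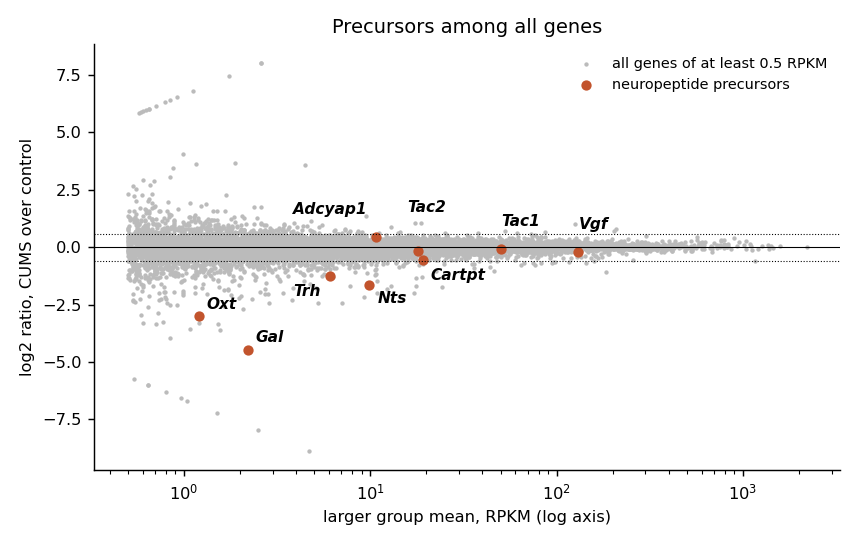
Log2 ratio of CUMS over control against the larger group mean (RPKM, log axis) for all 14257 genes that reached 0.5 RPKM in either group, in gray, and for 9 precursors, in orange; dotted lines mark 1.5-fold. Nts and Trh lie at the lower edge of the cloud at their level, and Vgf, Tac1 and Tac2 lie inside it. The gray arcs far from 0 hold genes listed at 0.01 RPKM in 1 group, whose ratios have no meaning as folds.

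The peptides act through receptors, and 19 receptors were compared. Of these, 14 had at least 0.5 RPKM in either group, 9 with a lower and 5 with a higher CUMS mean (median log2 ratio -0.23). More than 1.5-fold lower were 4 receptors, and 1 was higher by this fold. Of all genes at this level, 53.2% had a lower CUMS mean, 4.42% were more than 1.5-fold lower and 2.78% were higher by this fold. Such shares depend on level, and Vipr2, Avpr1a and Tacr3 lay not far above 0.5 RPKM in control. Tacr1 and Tacr3, the tachykinin receptors that reached 0.5 RPKM, were both among the lower ones. Tacr1, the substance P receptor, was 2.655 RPKM in control (215 fragments) and 1.455 RPKM in CUMS (120 fragments), a log2 ratio of -0.87 (-1.19 to -0.53). Tacr3, the neurokinin B receptor, was 0.855 and 0.41 RPKM (52 and 25 fragments), a log2 ratio of -1.06 (-1.82 to -0.36). The intervals of both receptors reached folds under 1.5, and that of Tacr3 overlapped the interval of its ligand gene Tac2.

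The neurotensin receptors went in different directions. Ntsr1, the high-affinity receptor, was 3.81 RPKM in control (240 fragments) and 6.475 RPKM in CUMS (412 fragments), a log2 ratio of 0.77 (0.53 to 1.00), while its ligand gene Nts was lower. Ntsr2, the low-affinity receptor, was 75.2 and 63.1 RPKM, a log2 ratio of -0.25 (-0.35 to -0.15). Sort1, which binds neurotensin as a sorting receptor, had a log2 ratio of 0.06 (0.02 to 0.10) at 98.95 RPKM in control.

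Of the receptors for PACAP, Adcyap1r1, which prefers it, was 60.73 RPKM in control against 51.915 RPKM in CUMS, a log2 ratio of -0.23 (-0.28 to -0.17). Vipr2, which PACAP shares with the peptide VIP, was 0.985 and 0.23 RPKM (54 and 13 fragments), a log2 ratio of -2.10 (-3.07 to -1.18). Vipr1, the other shared receptor, was 8.86 and 9.84 RPKM, a log2 ratio of 0.15 (0.002 to 0.30). The vasopressin receptor Avpr1a was 0.79 and 0.205 RPKM (34 and 9 fragments), a log2 ratio of -1.95 (-3.18 to -0.85). The oxytocin receptor Oxtr was 4.255 and 3.64 RPKM, and its ratio of -0.23 (-0.47 to 0.01) did not exclude equal expression. The same held for the TRH receptors Trhr (-0.10, interval -0.69 to 0.48) and Trhr2 (0.23, interval -0.49 to 0.97), for the galanin receptor Galr2 (-0.42, interval -1.64 to 0.74) and for C3ar1 (0.45, interval -0.28 to 1.19), which binds a VGF peptide. Tacr2, Galr1, Galr3, Avpr1b and Avpr2 stayed under 0.5 RPKM in both groups. Of these, Galr1 was 0.325 and 0.085 RPKM (15 and 4 fragments), a log2 ratio of -1.93 (-3.97 to -0.27).

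The enzymes and granule proteins that make the peptides did not share the low ratios of Nts and Trh. Of 16 such genes, all above 0.5 RPKM, 12 had a higher and 4 a lower CUMS mean, 0 passed 1.5-fold in either direction, and the median log2 ratio was 0.06. The convertase gene Pcsk2 was 99.58 RPKM in control against 124 RPKM in CUMS, a log2 ratio of 0.32 (0.28 to 0.36). The granule protein gene Scg2 was 92.51 and 72.805 RPKM, a log2 ratio of -0.35 (-0.42 to -0.28). The interval of Qpct, whose enzyme closes the first residue of TRH and neurotensin into a ring, did not exclude equal expression (-0.18, interval -0.48 to 0.10). Of 12 enzymes of peptide breakdown with at least 0.5 RPKM, 5 had a lower and 7 a higher mean, with a median of 0.04. Ece2, a peptide-cutting enzyme, was the 1 gene more than 1.5-fold lower (-0.67, interval -0.85 to -0.48). Dpp4, which trims the ends of peptides, was the 1 gene higher by this fold, on 29 and 51 fragments (0.80, interval 0.11 to 1.51). Nln, which cuts neurotensin, was 8 RPKM in control against 10.51 RPKM in CUMS (0.39, interval 0.22 to 0.57).

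Markers of several subcortical areas also had lower CUMS means. In bulk tissue, fewer cells of a type and less RNA per cell cannot be told apart. All 14 septum and preoptic markers were more than 1.5-fold lower in CUMS (median log2 ratio -1.62), and their summed level was 116 RPKM in control against 38.585 RPKM in CUMS. The study lists 6 of these genes as changed on the same libraries, so that they are no independent evidence. The other 8 were all more than 1.5-fold lower as well, with a median of -0.93. This list and the lists below were chosen with earlier results of these data known. The genes left after setting aside those that the study lists are thus no independent evidence either. Among the defining genes, Zic1 had a log2 ratio of -1.34 (-1.52 to -1.17) and Lhx8 of -2.01 (-2.67 to -1.38). The intervals of Trh (-1.74 to -0.79) and Nts (-2.08 to -1.22) each overlapped those of both Zic1 and Lhx8. Zic1 is among the genes that the study lists.

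Of 16 hypothalamus markers only 6 had at least 0.5 RPKM, 4 with lower and 2 with higher means (median -0.80). The higher ones were the peptide genes Kiss1 (4 fragments in control and 12 in CUMS) and Pmch (5 and 8 fragments). The summed level of the 16 was 11.47 RPKM in control against 7.925 RPKM in CUMS, with 5 markers at 0 fragments in CUMS and at 1 to 4 in control. Agrp went the other way, with 0 fragments in control and 5 in CUMS. Without Nkx2-1 and Six3 the sum was 4.735 RPKM in control against 5.3 RPKM in CUMS. Nkx2-1 was 2.565 and 0.67 RPKM (100 and 27 fragments, -1.94, interval -2.58 to -1.28). Otp, a defining factor of oxytocin and vasopressin neurons, rested on 4 fragments in control and 0 in CUMS. Sim1, the other such factor, was not analysed here. The companion genes of these large neurons had lower means for 4 of 5 (median -0.05), and 1 (Creb3l1, -0.66, interval -1.18 to -0.17) was more than 1.5-fold lower. Their summed level was 92.72 RPKM in control against 98.70 RPKM in CUMS. Arnt2, with a log2 ratio of 0.13, made up most of it, and without Arnt2 the sum was 10.625 and 8.88 RPKM.

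Olfactory bulb and neuroblast markers were lower in 12 of 12 genes (10 by more than 1.5-fold, median -0.88, summed level 115 and 63.02 RPKM). Without the 3 genes that the study lists, 9 of 9 were lower and the median was -0.70. Striatum markers, a list that includes Tac1 itself, were lower in 12 of 13 genes with a median of -0.30, but only 1 (Isl1, -1.19) passed 1.5-fold, and their summed level was 604 RPKM in control against 500 RPKM in CUMS. Adora2a (-0.45) and Drd1a (-0.26) had lower ratios than Tac1. Thalamus markers were lower in 7 of 8 genes (3 by more than 1.5-fold, median -0.29, summed level 29 and 14.85 RPKM). Without Prkcd, which the study lists and which also stands in the septum list, 6 of 7 were lower, 2 by more than 1.5-fold, and the summed level was 11.775 and 10.55 RPKM. Markers of cortical neurons had medians above 0. Excitatory neuron markers were higher in 12 of 14 genes (median 0.31, summed level 2335 and 2867 RPKM), among them Slc17a7 (0.32). Interneuron markers were higher in 7 and lower in 5 of 12 genes (median 0.12, summed level 988 and 1180 RPKM). Cck (421 and 565 RPKM) made up most of the difference in this sum. Gad1, Gad2 and Slc32a1, which the study lists as lower, are not in this list. Calb2 (-0.92) and Dlx1 (-0.60) were lower and stand in the olfactory list instead. Activity-induced genes, of interest for Vgf, were lower in 19 of 20 genes (8 by more than 1.5-fold, median -0.46, summed level 966 and 648 RPKM). Arc and Fos, at -1.06 each, had the lowest ratios, and Bdnf (0.09) was the 1 higher gene. Vgf (-0.21) was closer to 0 than Arc, Fos and the list median. Of the 19 lower genes, Homer1 (-0.20) alone was closer to 0 than Vgf. Without the 4 that the study lists, 15 of 16 were lower and the median was -0.44. Blood cell markers were higher in 8 of 8 genes (median 0.98, summed level 343 and 601 RPKM), 5 of them listed by the study. The part of these genes' cells in the ratios of the precursors was not tested.

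**Figure D4:**
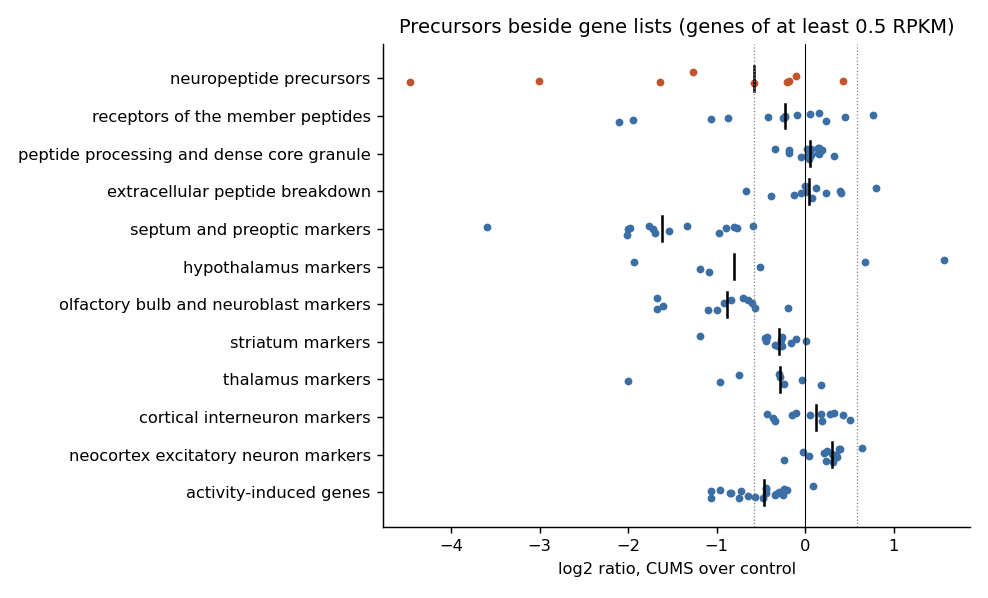
Log2 ratio of CUMS over control of the precursors (orange) and of genes in comparison lists (blue), 1 point per gene that reached 0.5 RPKM in either group; black bars are list medians and dotted lines mark 1.5-fold. The medians are -1.62 for septum and preoptic markers, -0.58 for the 9 precursors shown and 0.31 for neocortex excitatory neuron markers.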

How the data were processed

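mRNA was measured in 4 mPFC libraries, grouped by their sample titles. Per the methods of the study, poly(A) RNA was read as paired ends, trimmed with SolexaQA, aligned to mm10 with TopHat (version 1.0.12 in the submitters' processing notes) and Bowtie (0.11.3), and reads aligned uniquely to genes were counted. The deposited RPKM values are the authors' group means; an RPKM of 0 is entered as 0.01. The table also holds the authors' log2 ratio, direction and NOISeq probability, which were not used. Gene annotation and strand setting were not given in the sources used here; no other GENCODE M21 gene overlaps a member.

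Fragments were estimated from 403 control and 382 CUMS low values (genes of 300 to 1000 bases, product of mean and length under 350). A step of 61.25 (control) or 60.5 (CUMS) RPKM x bases with lengths shortened by 65 bases left 93.3% and 93.7% of values within 0.1 of a whole number, against 78.9% and 82.5% without shortening. A step was taken to be 1 fragment of 1 library. The study states a larger read number, and a greater true depth would narrow the intervals. Ratios were log2 of CUMS mean over control mean with no pseudocount; intervals were Clopper-Pearson (95%) on fragments and the floor was 3 fragments (Python 3.11.15, scipy 1.17.1). The script was tested on simulated data. Members and lists were chosen with earlier results of these data known. The rule for named genes took all members, receptors of at least 0.5 RPKM, defining markers, and up to 4 genes per list with the largest absolute ratio among those of at least 20 fragments; some genes under this rule are not reported here. Alternatives were pseudocounts, rescaling, minimum levels and other folds. limma was planned for values of single libraries and was not run. Coordinates are RefSeq spans on GRCm38.p6, matched by gene identifier, and promoters are from RefSeq.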

Additional observations from a re-analysis of the deposited data

How the results depend on the processing

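The table used here gives group means only, so fits that leave out a library were not run. No paired analysis was possible because the groups are different mice and the columns hold group means. The replicate block was not run. The number of precursors more than 1.5-fold lower was 4, and it was 2 among the 7 with at least 5 RPKM, where Gal and Oxt drop out by construction. It was 3 among the 8 with at least 20 fragments, 5 at a fold above 1.2, and 4 under the other alternatives, among them an estimate of fragments without shortened lengths, which was chosen after seeing the data. The median log2 ratio of the members was -0.39 and ranged from -0.58 to -0.21 over the alternatives. Rescaling moved every log2 ratio by 0.015 or by -0.0076. Of 60 values of single precursors under alternatives, 59 stayed within their counting interval, and Gal left it with a pseudocount of 1 (-1.54). With values under 3 fragments raised to 3, Gal was -2.95 and Oxt -1.44, so that the sizes of these ratios rest on 1 fragment in CUMS.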

Other observations

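Precursors of other neuropeptides were listed as well, and 35 of them were measured, 24 that reached 0.5 RPKM in either group. Of the 24, 13 had a lower and 11 a higher CUMS mean (median log2 ratio -0.12), 6 were more than 1.5-fold lower and 3 were higher by this fold. Of all 14257 genes at this level, 53.2% had a lower mean, which is near the share here. More than 1.5-fold lower were 4.42% of these genes, and 2.78% were higher by this fold. Agt, the angiotensin precursor and a gene that the study lists as changed, was 12.245 RPKM in control (358 fragments) and 3.46 RPKM in CUMS (102 fragments), a log2 ratio of -1.82 (-2.16 to -1.51). Nmb, the gene of neuromedin B, was 5.745 and 2.935 RPKM (-0.97, interval -1.65 to -0.32). Pnoc, the gene of nociceptin, was 6.525 and 3.505 RPKM (-0.90, interval -1.23 to -0.57). Gnrh1, the gene of the hormone that drives the gonadal axis, was 2.35 and 1.04 RPKM on 18 and 8 fragments, and its interval (-2.60 to 0.09) did not exclude equal expression.

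Among the peptide genes of cortical neurons the directions differed. Cort, the gene of cortistatin, was 8.44 and 4.995 RPKM (-0.76, interval -1.39 to -0.14). Vip was 15.65 RPKM in control against 22.285 RPKM in CUMS, a log2 ratio of 0.51 (0.32 to 0.70), close to that of Adcyap1. Cck was 421 and 565 RPKM, a log2 ratio of 0.42 (0.37 to 0.48). Npy had a log2 ratio of 0.27 (0.13 to 0.42). The intervals of Sst (0.05, interval -0.02 to 0.13) and Crh (-0.30, interval -0.92 to 0.35) did not exclude equal expression. Vip, Cck, Npy and Sst are also in the list of cortical interneuron markers.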
